A study of Rattus norvegicus with 9 samples.

Results

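The 29 genes described here carry out or control the oxidation of fatty acids and the making of ketone bodies. They were taken by symbol from a fixed list, out of 17145 rows in each deposited table, and all 29 are in both tables. The list holds 19 genes of mitochondrial steps, 6 of peroxisomal steps, the ketone body enzyme Bdh1, and 3 genes of a regulator group, Ppara, Angptl4 and Ucp2. For a test a gene had to average 1 FPKM or more in a table, and 28 members did. The exception was the mitochondrial hydratase Echs1, listed at 0 in 9 of 12 columns and at no more than 0.0792 FPKM in the others. Such values in a gene of wide expression can be failed estimates, so no difference is given for Echs1.

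Total RNA was sequenced in 9 samples of ileum, the last stretch of the small bowel, from Otsuka Long-Evans Tokushima fatty (OLETF) rats, 3 in each of 3 groups. OLETF rats lack a working cholecystokinin A receptor, overeat and become obese and diabetic, and every group, sham included, is of this strain. The groups are ileum after Roux-en-Y gastric bypass (RYGB) labelled FDG decreased, ileum after RYGB labelled FDG increased, and sham-operated ileum. The labels give 1 month after operation as the time, no age, sex or diet, and no word on whether replicates are separate animals. The p-values below thus measure the spread between these samples, which may be technical in part. FDG is read here as fluorodeoxyglucose, the tracer of glucose uptake, which the labels do not spell out. The series' design text asks how gastric bypass affects the small intestine.

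Of the deposited tables, the one called the RYGB table here holds the FDG-decreased and FDG-increased groups, and the sham table holds the FDG-increased and sham groups, each with 3 libraries a group. The values are FPKM, fragments scaled to the length of the transcript and to the mapped fragments of the library, so levels can be set side by side between genes. The sum of FPKM per library ran from 465697 to 864511, and the read depth behind it is unknown. The tables share libraries under different numbers: FDG-increased replicates 1 and 2 of the RYGB table are replicates 2 and 3 of the sham table, apart from a scaling factor. Across 12 columns there are thus 10 libraries, and FDG-increased ileum has 4 where the labels give 3. Sham replicate 1 stood apart in genes that mark the region of the gut. Its level of Fabp6, the ileal bile acid binding protein, was 22.6 FPKM against 8375 and 11347 in the other sham libraries, and its level of lactase (Lct), a gene of proximal intestine, was 253 against 8.60 and 0.317 FPKM.

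In the mitochondrion, long-chain fatty acids enter as carnitine esters, are shortened in repeated rounds of dehydrogenation, hydration, oxidation and thiolysis, and hand electrons to the respiratory chain through the electron transfer flavoprotein. Peroxisomes shorten very long and branched acyl chains first and pass the products on. PPAR alpha, a nuclear receptor activated by fatty acids, switches on much of this set in liver and intestine, where absorptive cells take up dietary fat. Acetyl-CoA from these rounds can also be made into ketone bodies, a branch to which the members Acat1 and Bdh1 belong.

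By level per length of transcript, the mitochondrial genes stood well above the peroxisomal ones. The median FPKM of each gene over the 3 sham libraries had a median of 65.8 over the 18 mitochondrial members measured, from 19.7 for Eci1 to 188 for Hadh. The 6 peroxisomal members had a median of 18.2, from 5.17 for Pex11a to 84.9 for Hsd17b4. The highest member of all was Ucp2, a carrier of the inner mitochondrial membrane, with a sham median of 346 FPKM. It was followed by the hydroxyacyl-CoA dehydrogenase Hadh at 188 FPKM, by the flavoprotein subunit Etfa at 186 FPKM, and by the subunits of the trifunctional protein, Hadhb at 144 and Hadha at 135 FPKM. The sham range of Ucp2 lay above the others, while those of Hadh, Etfa, Hadhb and Hadha overlapped, so their order is not resolved. The lowest were Angptl4, a secreted inhibitor of lipoprotein lipase, at 6.90 FPKM, the peroxisomal thioesterase Acot8 at 5.39, and Pex11a, which promotes division of peroxisomes, at 5.17 FPKM; their sham ranges overlapped too. Carnitine palmitoyltransferase 1a (Cpt1a), the rate-limiting gate of mitochondrial entry, had a sham median of 58.6 FPKM, above its partner Cpt2 at 21.2 FPKM, and their sham ranges did not overlap.

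**Figure D1:**
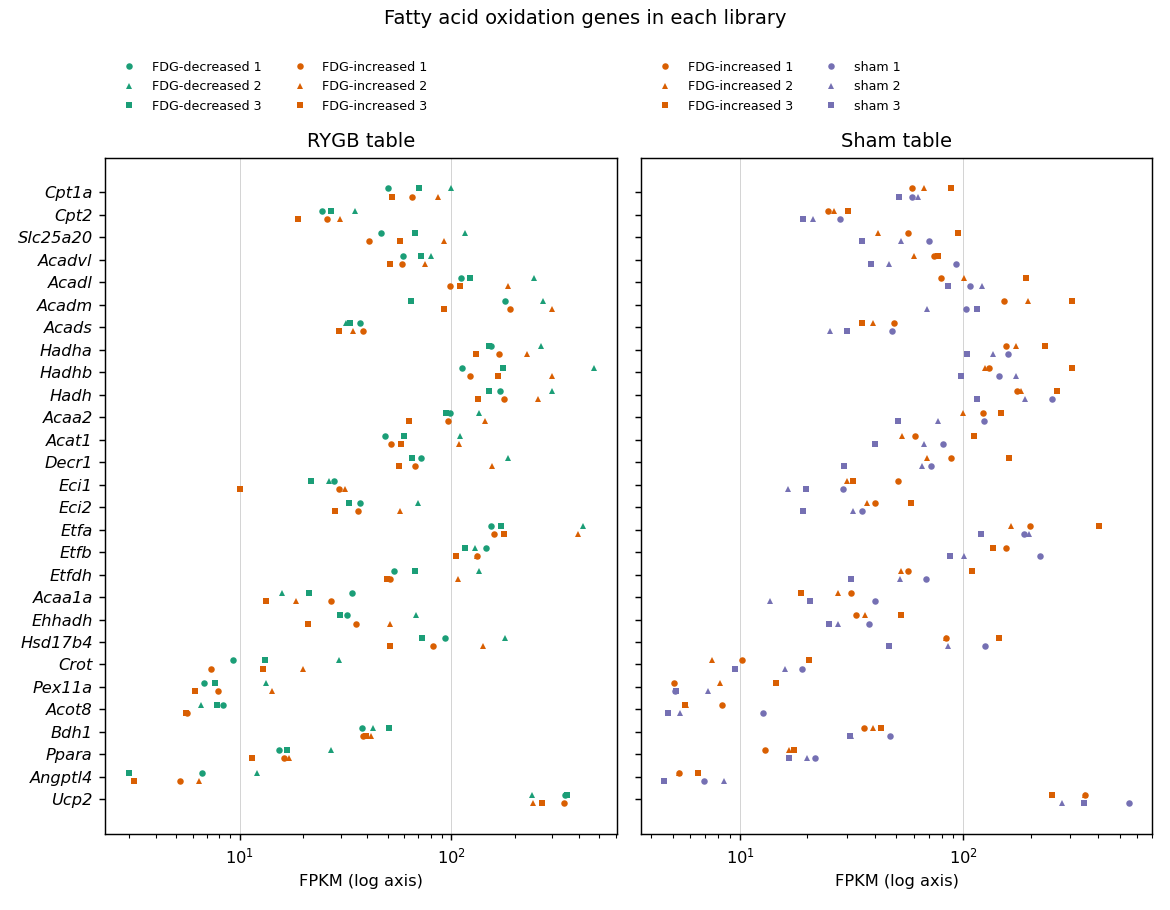
Levels of the 28 members that passed the level filter, in FPKM on a log axis, with 1 point per library, 1 panel per table and members ordered by step. The mitochondrial members lie mostly above the peroxisomal ones in every group, from medians of 19.7 to 188 FPKM in sham ileum against 5.17 to 84.9 FPKM.

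Between FDG-decreased and FDG-increased ileum after RYGB, no member passed the test. At an adjusted p under 0.05 by limma with Benjamini-Hochberg adjustment over all 10739 genes, 0 of 28 members were called, beside 0% of all genes. With the replicate number as a block, a fit that compares same-numbered libraries, 0 of 28 members were called again, beside 1.14% of all genes. At an unadjusted p under 0.05 the unblocked fit had 0 members, beside 1.02% of all genes. The blocked fit had 2, Hsd17b4 and Acot8, both higher in FDG-decreased ileum, beside 4.81% of all genes in that direction. On the log2(FPKM + 1) scale, 24 of 28 differences were above 0, that is, higher in FDG-decreased ileum, beside 55.2% of all genes. The median difference of the members was 0.19, beside 0.02 for all genes, and single members ranged from -0.24 to 0.38. Standard errors of 0.23 to 0.65 without the block and 0.127 to 0.242 with it limited the size of difference that could be called. The count above 0 hung on single libraries. Without FDG-decreased replicate 2, the median was -0.10 with 11 members higher and 17 lower, and without FDG-increased replicate 3 it was -0.02 with 13 higher and 15 lower. The median of all genes moved along, to -0.11 and -0.09.

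The mitochondrial members had 15 of 18 differences above 0 with a median of 0.17, and the peroxisomal members had 5 of 6 with a median of 0.27. In pairs 1, 2 and 3 the median within-pair difference was 0.25, 0.28 and 0.46 over the peroxisomal members and -0.05, 0.20 and 0.20 over the mitochondrial ones. Pair 1 thus had no tilt upward over the mitochondrial members, and over all 28 the pair medians were -0.01, 0.21 and 0.25. FDG-decreased ileum was the higher one in all 3 pairs for 9 of 28 members, beside 17.2% of all genes, and the lower one in all 3 pairs for 1 member, Acadm, beside 12.7%. Among the 6 peroxisomal members, 3 were higher in every pair.

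For the entry of fatty acids, the largest difference was that of Slc25a20, the translocase that exchanges acylcarnitine for carnitine across the inner membrane. Its levels were 46.6, 117 and 67.3 FPKM in FDG-decreased replicates 1, 2 and 3 and 40.7, 92.8 and 57.3 FPKM in the FDG-increased ones. Each FDG-decreased library was above its partner, while the groups overlapped widely, with a log2 difference of 0.25 (SE 0.47). Cpt1a was at 50.5, 99.5 and 70.4 FPKM against 64.9, 86.6 and 52.7 FPKM, lower in pair 1 and higher in the other pairs, and its log2 difference was 0.08 (SE 0.38).

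Of the acyl-CoA dehydrogenases, which open each round for chains of different length, the long-chain enzyme Acadl differed most upward. It was at 111, 247 and 123 FPKM in FDG-decreased and at 98.7, 186 and 110.2 FPKM in FDG-increased ileum, a log2 difference of 0.25 (SE 0.45) with overlapping groups. The medium-chain enzyme Acadm went the other way, with 180, 270 and 64.9 FPKM against 189, 299.9 and 92.2 FPKM. Its log2 difference of -0.24 (SE 0.65) was lower in all 3 pairs and far smaller than its range between pairs. Acads, the short-chain enzyme, had a log2 difference of 0.01, and Acadvl, the very-long-chain enzyme, one of 0.19.

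In the later steps Hadhb, which carries the thiolase of the trifunctional protein, was at 113, 472 and 176 FPKM against 122, 300.5 and 167 FPKM, a log2 difference of 0.21 (SE 0.61). Replicate 2 was the highest library in both groups. The other measured members of these steps, Hadha, Hadh, the thiolase Acaa2 and the acetoacetyl-CoA thiolase Acat1, had log2 differences from -0.02 for Acat1 to 0.17 for Acaa2. Among the enzymes that prepare unsaturated chains, the isomerase Eci1 was at 27.9, 26.3 and 21.7 FPKM against 29.5, 31.5 and 9.98 FPKM, a log2 difference of 0.24 (SE 0.45). That sign came from FDG-increased replicate 3, the lowest of the 6, without which the difference was -0.27. For electron transfer, Etfdh, which passes electrons on to ubiquinone, was at 53.7, 136 and 67.5 FPKM against 51.6, 107 and 49.6 FPKM. It was higher in each pair, with a log2 difference of 0.28 (SE 0.48) and overlapping groups.

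Acot8, which frees fatty acids from CoA in the peroxisome, was the one member whose groups did not overlap in the RYGB table, beside 1.95% of all genes in that direction, and 0 members were apart the other way, beside 1.26%. Its levels were 8.32, 6.59 and 7.80 FPKM in FDG-decreased ileum, a mean of 7.57 ± 0.884 (SD, n = 3), and 5.62, 5.59 and 5.54 FPKM in FDG-increased ileum, a mean of 5.58 ± 0.037 (SD, n = 3). The 3 FDG-increased libraries of that table lay within a narrow band below all FDG-decreased ones. The log2 difference of 0.38 (SE 0.23) did not pass, with an adjusted p of 1.00 by limma and 0.465 with the block. The FDG-increased library that only the sham table holds, its replicate 1, stood at 8.30 FPKM there, inside the FDG-decreased range. Hsd17b4, the multifunctional enzyme of peroxisomal oxidation of very long and branched chains, had the lowest blocked adjusted p of the members, 0.401 by limma. It was at 93.2, 180 and 73.0 FPKM against 81.9, 141 and 51.1 FPKM, higher by 0.18, 0.35 and 0.50 on the log2 scale in pairs 1, 2 and 3. Crot, which makes acylcarnitines from the shortened chains, was also higher in each pair, at 9.30, 29.3 and 13.1 FPKM against 7.31, 19.9 and 12.9 FPKM. The thiolase Acaa1a, whose near-identical copy Acaa1b makes its level uncertain, the bifunctional enzyme Ehhadh and Pex11a had log2 differences of 0.25, 0.25 and -0.01.

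The ketone body enzyme Bdh1, which interconverts acetoacetate and 3-hydroxybutyrate, was at 37.7, 42.9 and 50.7 FPKM against 38.4, 41.9 and 39.5 FPKM. It varied little, with a log2 difference of 0.12 (SE 0.29). Its groups overlapped. The receptor gene Ppara itself was at 15.3, 27.1 and 16.7 FPKM against 16.1, 17.0 and 11.4 FPKM, a log2 difference of 0.36 (SE 0.32) with a blocked adjusted p of 0.560 by limma. Its pair 1 libraries were close and the difference came from pairs 2 and 3. Angptl4 had the same log2 difference, 0.36, and Ucp2 one of 0.13.

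**Figure D2:**
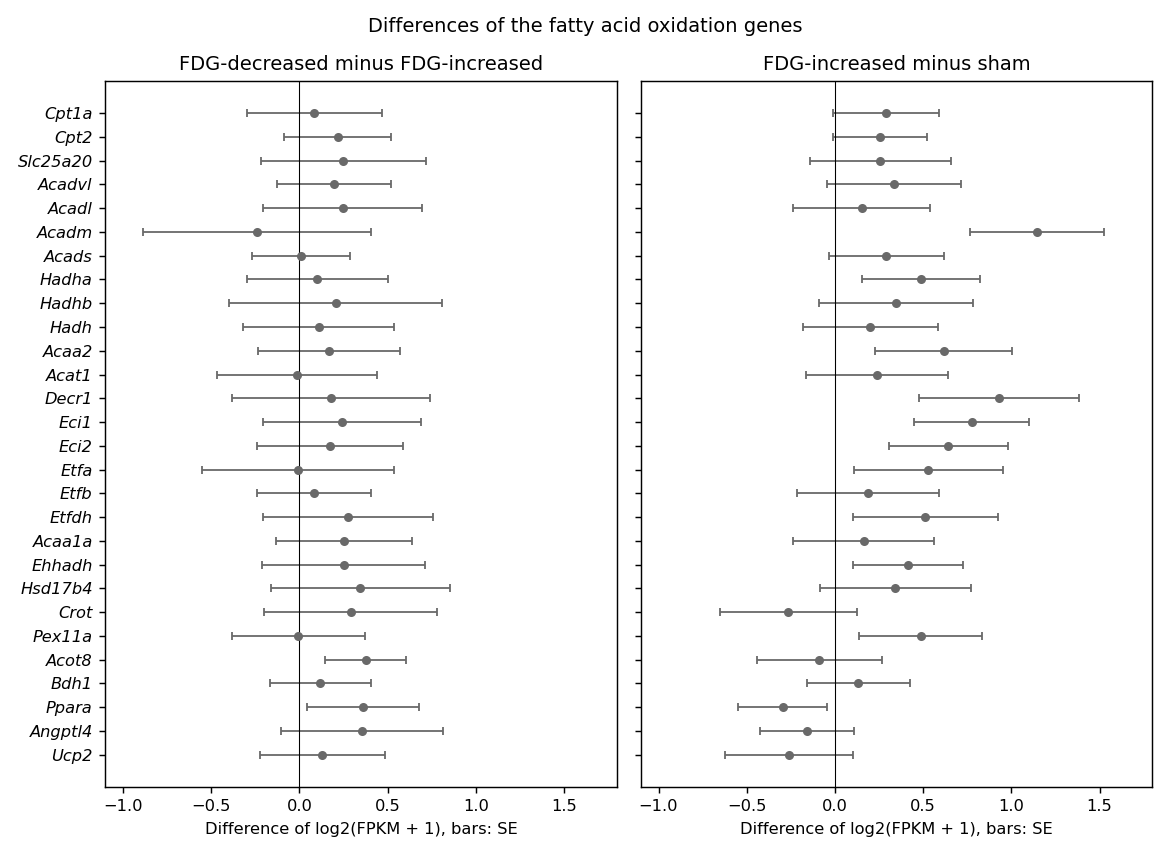
Log2 differences of the 28 members, as log2(FPKM + 1), for FDG-decreased minus FDG-increased ileum and for FDG-increased minus sham ileum, with bars for the standard error of the unblocked limma fit. In the first comparison the points lie between -0.24 and 0.38, and in the second between -0.30 and 1.14. In the second the 18 mitochondrial members are all above 0 on the deposited scaling. That count falls without FDG-increased replicate 3 or sham replicate 3, and with the libraries of lane 7 alone.

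In these genes, as in most genes of the RYGB table, libraries differed more by replicate number than by group. Of 28 members, 22 had their highest pair mean in pair 2, 5 in pair 1 (Acads, Etfb, Acaa1a, Acot8 and Ucp2) and 1, Bdh1, in pair 3. Of all 10739 genes, 6398 were highest in pair 2, 3067 in pair 1 and 1274 in pair 3. The span of the 3 pair means was wider than the largest difference within a pair for 23 of 28 members (82.1%), beside 79.6% of all genes. The median span was 0.94 and the median of the largest within-pair differences 0.42 on the log2 scale, beside 0.78 and 0.38 for all genes, so the members lie near the background in this. Acadm had the widest span, 1.87, followed by Hadhb with 1.67. Etfa showed the contrast most plainly: 154, 418 and 172 FPKM in FDG-decreased and 159, 397 and 178 FPKM in FDG-increased ileum, a span of 1.37 between pairs with no more than 0.07 within any. Its libraries of equal number nearly coincided while replicate 2 stood far above the others. The replicate 2 libraries also had the highest sums of FPKM in that table. These were 827636 in FDG-decreased and 847267 in FDG-increased ileum, against 475536 to 616365 in the others. The main fit applied no scaling between libraries, and the part of library scale in these spans was not tested. The labels do not say what a number shares. By the numbers in the labels, pairs 1 and 2 each ran in a single lane, so the lane and the pair cannot be told apart there. By the same numbers, the libraries of pair 3 ran in different lanes, so the lane and the FDG group cannot be told apart within it. The FDG-increased numbers disagree between the tables, so the lanes of those libraries are uncertain.

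In that table the lists of other cell types and states moved with the groups in part. The proximal intestine list (9 of 10 genes in the table) had mean log2 levels of 3.15 to 3.45 in FDG-decreased and 1.99 to 2.37 in FDG-increased libraries. The immediate-early list (10 of 10 genes) was at 2.98 to 4.08 against 4.25 to 6.44. The absorptive cell list (9 of 10 genes) was at 8.50 to 9.73 against 7.90 to 9.06 and overlapped. Some lists moved with the pair instead. In FDG-decreased and FDG-increased replicate 3 the immune list was at 2.48 and 2.37, against 4.40 to 5.10 in pairs 1 and 2. The ileal bile acid list was at 6.11 and 6.17 in pair 3, against 7.21 to 8.08. The smooth muscle list was at 6.42 and 6.66 in pair 3, against 5.63 to 5.85. Their part in the members' values was not tested. In bulk tissue, fewer cells of a type and less RNA per cell cannot be told apart.

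Between FDG-increased RYGB ileum and sham ileum, again no member passed: 0 of 28 at an adjusted p under 0.05 by limma, beside 0.037% of 10801 genes, and 0 of 28 with the block, beside 0.361%. At an unadjusted p under 0.05 there were 2 members, beside 7.84% of all genes. Both, Acadm and Eci1, were higher in FDG-increased ileum, beside 6.15% of all genes in that direction. With the block 1 member, Acadm, was, beside 5.23%. The groups did not overlap for 3 of 28 members (10.7%), all higher in FDG-increased ileum, beside 10.7% of all genes, so the members' share equals the background. Differences were above 0 for 23 of 28 members, beside 64.7% of all genes, and the median was 0.29, beside 0.13 for all genes. With quantile normalization the median of the members was 0.01, with 15 higher and 13 lower. All sham libraries ran in lane 7, while the labels put only replicate 1 of the FDG-increased group there. Lane and group thus cannot be told apart for most libraries of this comparison.

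By compartment, all 18 mitochondrial members were higher in FDG-increased than in sham ileum, with a median difference of 0.34 on the log2 scale. Of the peroxisomal members 4 of 6 were, with a median of 0.25, and Ppara, Angptl4 and Ucp2 were all lower. The mitochondrial count hung in part on single libraries. It was 14 of 18 without FDG-increased replicate 3 and 15 of 18 without sham replicate 3, and stayed at 18 without any other single library. With the libraries of lane 7 alone, which leave a single FDG-increased library, it was 15 of 18 with a median of 0.26. With lane 7 taken by the RYGB table's numbers it was 13 of 18 with a median of 0.17. After the libraries were shifted to the same median, 18 of 18 mitochondrial members remained above 0 with a median of 0.21; after quantile normalization, 11 of 18 did with a median of 0.07. The peroxisomal members had 4 of 6 above 0 under both, with medians of 0.13 and 0.0085. None of these differences passed the test, and the difference between the compartments was not tested.

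Acadm, which starts the oxidation of medium chains, had the largest difference of the members. It was at 151, 194 and 306 FPKM in FDG-increased ileum, a mean of 217 ± 80.0 (SD, n = 3), and at 103, 68.9 and 115 FPKM in sham ileum, a mean of 95.5 ± 23.8 (SD, n = 3). Each FDG-increased library of this table was above each sham library. The log2 difference was 1.14 (SE 0.38), with an unadjusted p of 0.0147 and an adjusted p of 0.548 by limma. In the RYGB table the remaining FDG-increased library had 92.2 FPKM, inside the sham range. The other acyl-CoA dehydrogenases had smaller differences with overlap, 0.33 for Acadvl, 0.29 for Acads and 0.15 for Acadl.

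The 3 enzymes that handle double bonds were each higher in the FDG-increased group mean. Eci1 was at 50.9, 30.2 and 32.1 FPKM in FDG-increased ileum, a mean of 37.7 ± 11.5 (SD, n = 3), and at 28.7, 16.3 and 19.7 FPKM in sham ileum, a mean of 21.6 ± 6.41 (SD, n = 3). Its groups were apart by a narrow gap, and its log2 difference of 0.77 (SE 0.33) had an adjusted p of 0.626 by limma. Eci2, an isomerase found in mitochondria and peroxisomes, was at 40.03, 36.9 and 58.2 FPKM against 35.2, 32.1 and 19.2 FPKM, a log2 difference of 0.64 (SE 0.34) and an adjusted p of 0.694 by limma. Decr1, the dienoyl-CoA reductase, was at 87.9, 68.7 and 159 FPKM against 71.5, 65.0 and 29.05 FPKM, a log2 difference of 0.93 (SE 0.45). Decr1 overlapped by a little, and sham replicate 3 was the lowest library for both Decr1 and Eci2. Without that library the log2 differences were 0.53 for Decr1 and 0.38 for Eci2.

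Of the 4 members whose groups did not overlap in a table, promoter letters are shown for the 3 with a match to the motifs searched, Acadm, Eci1 and Acot8. PPAR alpha is known to act through repeats of AGGTCA-like letters, and the letters show how far these promoters hold them. RefSeq promoters on rat assembly GRCr8 were matched for 26 of 29 members; Acadl, Acaa2 and Decr1 are without one. The 250 bases before the gene start were searched on both strands, with motifs settled on after several had been tried. Capitals mark AGGTCA or GGGTCA on either strand. The first line is chr2:245542865-245543114 on the minus strand, the second chr10:13961000-13961249 on the plus strand, and the third the 30 bases around the match of Acot8, chr3:173962189-173962218 on the minus strand, all written 5′ to 3′ along the gene.
Acadm: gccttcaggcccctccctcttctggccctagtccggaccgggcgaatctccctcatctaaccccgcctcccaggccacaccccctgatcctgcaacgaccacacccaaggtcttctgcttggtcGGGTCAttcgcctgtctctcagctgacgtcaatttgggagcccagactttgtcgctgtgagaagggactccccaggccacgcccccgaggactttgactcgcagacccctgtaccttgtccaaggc
Eci1: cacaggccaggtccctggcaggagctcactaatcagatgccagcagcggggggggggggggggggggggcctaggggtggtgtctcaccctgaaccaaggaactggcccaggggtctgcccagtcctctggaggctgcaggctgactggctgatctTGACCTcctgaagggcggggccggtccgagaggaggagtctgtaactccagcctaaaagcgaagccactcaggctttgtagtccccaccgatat
Acot8: cacgccagGGGTCAGAGGTCActgggtaac
Acadm holds a lone GGGTCA and Eci1 a lone AGGTCA, read as its complement. Acot8 holds both, joined by 1 base into GGTCA, any base, AGGTCA, whose start lies 21 bases before the gene start in a window that also reaches into the neighbouring gene Zswim3.

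That joined form is rare: of 33469 promoters of the same length, 28 (0.0837%) held GGTCA, any base, AGGTCA, with Acot8 alone among the 26 of the members. The full repeat (AGGTCA, any base, AGGTCA) was in 17 (0.0508%), with 0 of the 26. The single forms are common. AGGTCA was in 14.1% of all promoters and in 5 of the 26, those of Acadvl, Acot8, Echs1, Eci1 and Hsd17b4. GGGTCA was in 11.9% and in 4 of the 26, those of Acadm, Acot8, Etfdh and Pex11a. The forms overlap, since each joined match contains a single one. A match describes letters in the window and is not a site shown to be bound.

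**Figure D3:**
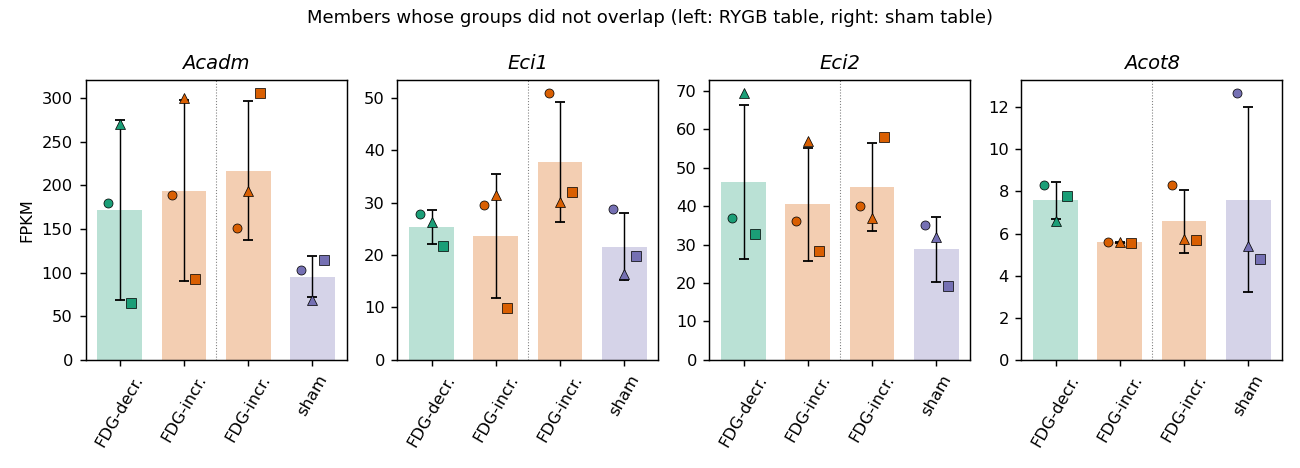
FPKM per library of the members whose groups did not overlap in a table, with 1 point per library, a bar for each group mean and a line for its SD (n = 3), for the RYGB table left of the dotted line and the sham table right of it. Acot8 in the RYGB table lies at 6.59 to 8.32 FPKM in FDG-decreased and 5.54 to 5.62 FPKM in FDG-increased ileum, and Acadm in the sham table at 151 to 306 FPKM in FDG-increased and 68.9 to 115 FPKM in sham ileum.

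In the other mitochondrial steps the groups of the sham table overlapped. Cpt1a was at 59.0, 66.4 and 88.4 FPKM in FDG-increased and at 58.6, 62.4 and 51.6 FPKM in sham ileum. The 3 entry genes had like log2 differences, 0.29 (SE 0.30) for Cpt1a and 0.26 for both Cpt2 and Slc25a20. Acaa2, which closes each round by thiolysis, was at 122, 99.1 and 147 FPKM against 124, 76.9 and 51.0 FPKM, a log2 difference of 0.62 (SE 0.39) with an adjusted p of 0.748 by limma. Sham replicate 1 lay inside the FDG-increased range, and sham replicate 3 was lowest. Etfa was at 199, 163 and 405 FPKM against 186, 195 and 119 FPKM, a log2 difference of 0.53 (SE 0.42), and FDG-increased replicate 3 stood far above the other 5 libraries. Etfdh and Etfb had log2 differences of 0.51 and 0.19. Among the later steps the log2 differences ran from 0.20 for Hadh to 0.62 for Acaa2, with 0.49 for Hadha.

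Peroxisomal members divided by sign. Pex11a was at 5.07, 8.10 and 14.4 FPKM in FDG-increased and 5.12, 7.19 and 5.17 FPKM in sham ileum, the largest difference of its group at 0.49 (SE 0.35), with an adjusted p of 0.783 by limma. It rested mainly on FDG-increased replicate 3, since it was 0.14 without that library and 0.52 without replicate 2. Replicate 1 was below all sham libraries. Ehhadh and Hsd17b4 had log2 differences of 0.42 and 0.34, Acaa1a one of 0.16, Acot8 one of -0.09 and Crot one of -0.26. Bdh1 was at 36.0, 39.3 and 42.8 FPKM against 46.9, 31.3 and 31.1 FPKM, a log2 difference of 0.13 (SE 0.29), and its groups overlapped. Ppara was at 13.0, 16.5 and 17.4 FPKM against 21.6, 19.9 and 16.6 FPKM, a log2 difference of -0.30 (SE 0.25) with an adjusted p of 0.811 by limma. Only FDG-increased replicate 3 reached into the sham range. Ucp2 and Angptl4 had log2 differences of -0.26 and -0.16.

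Single libraries weighed on the sham table as well. FDG-increased replicate 3 was the highest of the 6 libraries for 18 of 28 members (64.3%), beside 47.8% of all genes. Sham replicate 3 was the lowest for 19 of 28 (67.9%), beside 15.01% of all genes. These libraries also had the highest and the lowest sum of FPKM, 864511 and 465697. Sham replicate 1, with the proximal markers, was the highest for 7 of 28 (25%), beside 16.5%. The mean log2 level of the 18 mitochondrial members was 6.38, 6.26 and 6.91 in the FDG-increased libraries and 6.44, 6.07 and 5.67 in the sham ones, so sham replicate 1 lay inside the FDG-increased range. The peroxisomal means were 4.30, 4.25 and 4.72 against 4.72, 4.15 and 3.87, with the same placing. The members' median difference was 0.52 without sham replicate 1 and 0.11 without sham replicate 3.

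The FDG-increased library that the sham comparison did not use, replicate 3 of the RYGB table, gave a further reading once rescaled to the sham table. Before rescaling, this library had the lowest median log2 level over all genes of any column, 3.64. Its immune list was at 2.37, against 4.42 to 5.13 in the FDG-increased libraries of the sham table. Its ileal bile acid list was at 6.17, against 7.18 to 7.98, so this library differed in make-up from the others of its group. The rescaled library lay above the sham range for 0 of 28 members, inside it for 22 (78.6%) and below it for 6 (21.4%), namely Eci1, Acaa1a, Ehhadh, Ppara, Angptl4 and Ucp2. Of all genes, 16.1% lay above, 49.4% inside and 34.5% below. Among the 1153 genes that separated upward in the sham table, 24.4% were above all sham libraries in this library also, and Acadm, Eci1 and Eci2 were not among them. On the same scale and without a test, the FDG-decreased libraries overlapped the sham libraries for all 28 members, beside 3.38% of all genes wholly above and 1.86% wholly below.

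Some marker lists moved with the sham comparison too. The immediate-early list was at 5.28 to 6.48 in FDG-increased and 3.37 to 4.11 in sham libraries as mean log2 levels, without overlap. The immune list (10 of 12 genes in the table) had mean log2 levels of 4.42 to 5.13 in FDG-increased and 3.39 to 3.91 in sham libraries. The FDG-increased library outside this comparison, replicate 3 of the RYGB table, was at 2.37 for the immune list on that table's scale. That is below all sham libraries, so FDG-increased ileum was not higher throughout. The ileal bile acid list (6 of 8 genes) was at 7.18 to 7.98 against 4.04 to 7.31, the proximal list at 2.01 to 2.39 against 1.94 to 5.20, and the adipocyte list (9 of 10 genes) at 1.97 to 2.71 against 2.28 to 4.64. These 3 overlapped, and sham replicate 1 held the sham extreme of the bile acid and proximal lists. The nuclear genes of oxidative phosphorylation (12 of 14) were at 7.88 to 8.29 against 7.45 to 8.57 and overlapped. No gene of these lists was at 0 in every library, and their part in the members' values was not tested.

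The 99 other genes of fatty acid and ketone body metabolism on the wider list gave a like picture with a few exceptions in the RYGB table. Of 79 tested there, 0 were called without the block and 3 with it, all higher in FDG-decreased ileum, beside 0.447% of all genes in that direction. These were Cd36, Pdk4 and Cyp4b1. Cd36, which takes up fatty acids at the cell surface, was at 126, 348 and 72.0 FPKM in FDG-decreased and 63.4, 190 and 34.8 FPKM in FDG-increased ileum. The groups overlapped while every pair differed by a near-constant step, 0.98, 0.87 and 1.03 on the log2 scale, and the blocked adjusted p was 0.0056 by limma. Pdk4, the kinase that turns cells from glucose toward fatty acid oxidation, was at 45.5, 87.9 and 23.1 FPKM against 19.9, 27.1 and 16.1 FPKM, with pair differences of 1.15, 1.66 and 0.50 and a blocked adjusted p of 0.0413 by limma. Cyp4b1, a fatty acid hydroxylase, was at 161, 93.1 and 9.73 FPKM against 103, 57.1 and 5.46 FPKM, with pair differences of 0.64, 0.69 and 0.73 and a blocked adjusted p of 0.036 by limma. Without pair 1 the blocked adjusted p by limma was 0.13 for Cd36, 0.295 for Pdk4 and 0.342 for Cyp4b1, so each call ended there, with log2 differences of 0.95, 1.08 and 0.71. Without pair 2 it was 1.27e-07, 0.000583 and 0.00217 by limma, and without pair 3 it was 6.41e-05, 6.54e-11 and 0.0163, in the same order of genes. Each fit without a pair holds only 2 pairs, so its p leans on variances shared across genes. The smaller values are thus no stronger evidence than the fit of all 3 pairs.

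**Figure D4:**
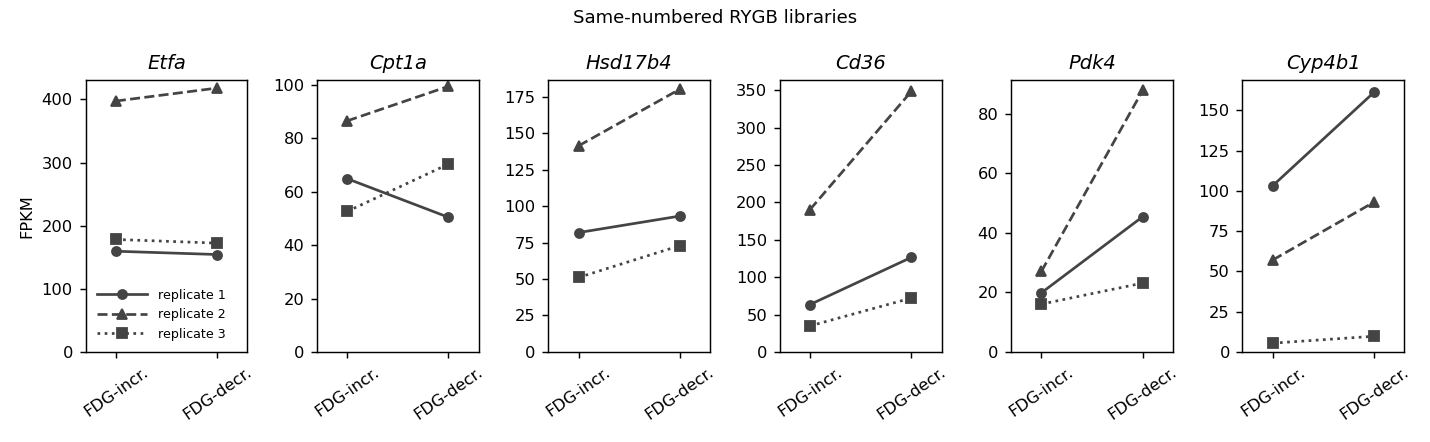
FPKM of the members Etfa, Cpt1a and Hsd17b4 and of the other pathway genes Cd36, Pdk4 and Cyp4b1 in the RYGB table, on axes that start at 0, with a line from the FDG-increased to the FDG-decreased library of each replicate number. The Etfa lines are nearly flat, with replicate 2 at 397 and 418 FPKM, the Cpt1a lines cross, and the lines of Hsd17b4, Cd36, Pdk4 and Cyp4b1 all go up.

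By list, 7 of 8 genes of fatty acid activation, binding and uptake had log2 differences above 0, with a median of 0.43, as did 21 of 25 other peroxisomal proteins, with a median of 0.21. Those of other mitochondrial enzymes were 6 of 15 with a median of -0.03. For ketone body synthesis, use and transport they were 3 of 7 with a median of -0.04. Of all genes, 55.2% had a difference above 0, with a median of 0.02. How far these list counts depend on single libraries was not tested. Groups did not overlap for 2 of the 79, Creb3l3 and Pex11g, beside 3.2% of all genes in either direction. Creb3l3, a transcription factor of fasting and lipid metabolism, was at 328, 177 and 178 FPKM against 175.5, 145 and 51.1 FPKM, a log2 difference of 0.99 and a blocked adjusted p of 0.233 by limma. Pex11g, a peroxisome division gene, was low throughout, at 2.93, 2.16 and 2.51 FPKM against 2.15, 1.49 and 1.76 FPKM.

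Of the 81 tested in the sham table, 0 were called with or without the block, 50 were higher and 31 lower in FDG-increased ileum, and the median was 0.16. The groups did not overlap upward for 5, Tmlhe, Hsd17b10, Ech1, Pccb and Nudt2, and downward for 3, Acacb, Ppargc1b and Cidec, beside 10.7% and 4.44% of all genes. Ech1, an isomerase of unsaturated chains, had a mean of 209 ± 28.8 (SD, n = 3) against 119.9 ± 46.1 (SD, n = 3) FPKM, a log2 difference of 0.85. Hsd17b10, a mitochondrial dehydrogenase of branched and short chains, had 181 ± 59.9 against 96.3 ± 7.52 FPKM (SD, n = 3 each), a log2 difference of 0.86. Tmlhe, the first enzyme of carnitine synthesis, differed by 0.75 and Nudt2 by 0.58. Cidec, a lipid droplet protein that is also an adipocyte marker, had 9.83 ± 1.78 against 22.4 ± 10.5 FPKM (SD, n = 3 each), a log2 difference of -1.02, and Ppargc1b, a coactivator of mitochondrial genes, differed by -0.73. Pdk4, called with the block in the RYGB table, had a log2 difference of -0.57 here with overlapping groups, and Cd36 one of -0.07. The comparisons share FDG-increased libraries, so their differences are not independent.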

How the data were processed

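Gene symbols in both tables are those of rat, while the submitters' processing notes list the human build hg19, so no coordinates come from the tables. The authors deposited FPKM per gene and library, scaled for each table on its own; the unit is read from the file headers' Cuffdiff-style column names and the values. DESeq2 1.24.0, STAR 2.6.0a, Cuffdiff, Cufflinks 2.2.1 and bcl2fastq 1.8.4 are named in the submitters' processing notes; their settings are not given in the sources used here. Per the labels' protocols, libraries were stranded total RNA depleted of ribosomal RNA.

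Samples were grouped by their titles. Date-like symbols, 25 in all, were dropped. Values were analysed as log2(FPKM + 1), which understates the change of low genes, for genes that averaged 1 FPKM or more in a table (10739 and 10801 genes). Groups were compared within a table with limma 3.58.1 in R 4.3.3 (intensity trend, robust variances), with Benjamini-Hochberg adjustment over all genes tested and a threshold of 0.05; the script was tested on simulated data. Values across the tables used the factor 1.0217 from the shared libraries, of whose genes at least 99.9% lay within 1% of their own factor.

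The members and the gene lists were chosen with earlier results of these data known. Members with values in every library are those whose groups do not overlap, and in each step group the member with the largest difference in each table; a few others are added for their role. Of the other pathway genes, those called were named, and up to 6 per table with the largest difference among those whose groups do not overlap. Libraries of equal number in the RYGB table departed from their group means alike (correlations across genes of 0.845, 0.763 and 0.768), so the numbers, taken from the labels, were taken to pair the samples. In the sham table the same-numbered correlations were 0.35, -0.50 and -0.25. Alternatives were the pseudocount, the filter, the scaling, the block, the variance model, lanes and leaving out each library. The 3 against 3 design allows an exact permutation test no p below 0.1, so none was run.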

Additional observations from a re-analysis of the deposited data

How the results depend on the processing

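No member was called under any alternative in either comparison. Of all genes, limma called 0 in the RYGB table, with 110 at an unadjusted p under 0.05, and 4 in the sham table. With the replicate block it called 122 in the RYGB table, and 35, 415 and 346 with pair 1, 2 or 3 left out. That alternative was chosen after seeing the data, and its fits hold only 2 pairs and lean on variances shared across genes. Without the block, leaving out each library gave 0 to 1. In the sham table it called 1 with a pseudocount of 0.1, 0 with no filter, 1 with libraries at the same median and 0 with quantile normalization. It called 39 with the block there and 0 to 13 without each library. The numbers do not pair the samples in the sham table. Lane 7 alone leaves a single FDG-increased library in that table. Which library that is depends on the numbering used, so no count of genes called is given for it. Lane 7 alone holds 1 library a group in the RYGB table, so no test was run there. At an unadjusted p under 0.05 the sham table had 664 genes higher and 183 lower; with libraries at the same median it had 528 and 368, and with quantile normalization 479 and 333.

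Leaving out each library moved the members' median difference from -0.10 to 0.39 in the RYGB table and from 0.11 to 0.52 in the sham table, the largest shifts in the RYGB table being those without FDG-decreased replicate 2 or FDG-increased replicate 3. In the RYGB table it moved Acadl from -0.11 to 0.52, Eci1 from -0.27 to 0.52, Etfdh from -0.11 to 0.63, Hadhb from -0.37 to 0.65, Slc25a20 from -0.10 to 0.56 and Cyp4b1 from -0.51 to 1.86. With the block, Eci1 was -0.16 without pair 3 and Hadhb -0.017 without pair 2. In the sham table, quantile normalization gave -0.12 for Bdh1 and -0.053 for Cpt1a, lane 7 alone gave -0.16 for Pex11a, and lane 7 by the RYGB table's numbers, also chosen after seeing the data, gave -0.00033 for Etfa. Leaving out each library there moved Etfa from 0.14 to 0.80, Pex11a from 0.14 to 0.81, Acaa2 from 0.31 to 0.94, Decr1 from 0.53 to 1.19 and Eci2 from 0.38 to 0.80. The cause of these changes was not tested. The block changed no call among the members. Acadm, at 3 times its standard error, was not called, and depth is unknown.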

Other observations

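The genes whose levels followed Cpt1a most closely were read off as a description. Over the 6 libraries of the RYGB table, Pearson's r of the log2 levels was highest for Lancl1 at 0.993, Pik3c3 at 0.992, Bicd1 at 0.989, Cep112 at 0.989 and Eftud1 at 0.988. Over those of the sham table it was highest for Sh3yl1 at 0.998, Mpc1, a subunit of the mitochondrial pyruvate carrier, at 0.996, Arl6ip5 at 0.996, Vkorc1 at 0.995 and Rab2a at 0.995. None of these 10 genes is a member, no gene is on both lists, and the libraries share depth and composition effects, so no p is given.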
